A study of Mus musculus with 30 samples.

Results

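The MYC, MAX and MXD network was followed through 30 lines of a mouse B cell lymphoma by taking the rows of Myc, Mycn, Max, Mxd1, Mxd3, Mxd4, Mxi1, Mnt, Mga and Mlx from the count table. These 10 genes were chosen by name among 55401 gene identifiers, and 9 of them held enough counts to be tested beside a total of 9445 tested genes. The cells carried the Eµ-Myc transgene, in which the immunoglobulin heavy chain enhancer drives Myc in B lineage cells, and lacked p19ARF. There were 12 DMSO control lines, 17 paclitaxel resistant lines and the parental line they came from, and each line gave 1 library. Each line except the parental line came from a well of 10000 cells that was exposed for 3 days to paclitaxel, a drug that stabilizes microtubules, or to an equal amount of DMSO, its solvent, and then recovered for 4 days without drug. The cycle ran for 12 to 18 weeks at a dose set to kill 85% of the cells. Every line descends from a single tumour cell line, so that the spread between lines is one between parallel cultures and not between tumours. The phenotype groups that the study defined among paclitaxel resistant lines are not in the sample labels and were not used.

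MYC and MYCN are transcription factors that bind DNA as dimers with MAX, at a short sequence known as the E-box, and raise transcription of genes for growth, ribosome assembly and metabolism. The MXD proteins, MXI1, MNT and MGA compete for the same partner and the same sequence, and MXD, MXI1 and MNT dimers recruit SIN3 and histone deacetylases to repress the genes that MYC raises. MLX is a related partner that pairs with some MXD proteins, with MNT and with the glucose-sensing MondoA and ChREBP. In Eµ-Myc lymphoma the transgene keeps Myc high in B cells, and loss of p19ARF removes a brake that would otherwise stabilize p53.

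Promoters of 4 members held the canonical E-box and are printed here because it is the sequence that every dimer of the network binds. The windows ran from 250 bases before to 50 bases after the annotated start of each gene and came from RefSeq on build GRCm38.p6. Of the 10 members 9 matched an entry, all but Myc. The motif searched was CACGTG, which reads the same on both strands. It was in 2349 of 32851 such windows (7.15%). It was not in the windows of Mycn, Mxd1, Mxd3 and Mga or in any of the 3 windows of Mxi1. The E-box is in capitals, and sequences read 5′ to 3′ on the strand of the gene. Its first base was 3 bases before the start of Max (chr12:76962199-76962498, minus strand), 219 bases before that of Mxd4 (chr5:34187661-34187960, minus strand), 123 bases before that of Mnt (chr11:74830674-74830973, plus strand) and 40 bases before that of Mlx (chr11:101087040-101087339, plus strand).
Max: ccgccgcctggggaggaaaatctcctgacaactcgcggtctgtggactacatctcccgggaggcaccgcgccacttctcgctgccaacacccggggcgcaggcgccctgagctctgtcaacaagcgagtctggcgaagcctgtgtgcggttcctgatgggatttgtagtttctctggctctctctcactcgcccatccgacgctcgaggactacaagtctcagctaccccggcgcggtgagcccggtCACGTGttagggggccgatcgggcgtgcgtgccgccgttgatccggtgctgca
Mxd4: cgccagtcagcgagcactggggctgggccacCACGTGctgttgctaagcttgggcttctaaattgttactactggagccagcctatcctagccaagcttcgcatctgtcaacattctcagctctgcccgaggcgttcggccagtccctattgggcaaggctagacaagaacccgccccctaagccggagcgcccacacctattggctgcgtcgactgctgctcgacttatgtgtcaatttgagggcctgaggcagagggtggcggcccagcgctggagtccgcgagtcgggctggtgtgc
Mnt: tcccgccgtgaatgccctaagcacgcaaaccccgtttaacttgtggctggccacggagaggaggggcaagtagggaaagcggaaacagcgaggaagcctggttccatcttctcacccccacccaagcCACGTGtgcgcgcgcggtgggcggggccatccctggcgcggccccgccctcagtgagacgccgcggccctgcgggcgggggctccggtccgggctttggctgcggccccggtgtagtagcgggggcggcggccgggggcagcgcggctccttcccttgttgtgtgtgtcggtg
Mlx: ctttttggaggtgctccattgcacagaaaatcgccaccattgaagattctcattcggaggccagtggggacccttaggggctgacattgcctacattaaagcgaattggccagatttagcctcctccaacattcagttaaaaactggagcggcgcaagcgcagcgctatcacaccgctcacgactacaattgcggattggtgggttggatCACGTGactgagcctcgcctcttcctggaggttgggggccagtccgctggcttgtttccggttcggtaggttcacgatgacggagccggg

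Library totals ran from 480919 to 6739131 counts, and the smallest library was Pac C1. Levels are given as CPM, the counts of a gene relative to its library total and scaled by TMM factors, and the text names lines by their labels. B cell markers were high in all groups, where the summed CPM of 9 markers ran from 3803 to 6283 in DMSO control lines and from 2237 to 6668 in paclitaxel resistant lines. The sums of 6 T cell markers reached 19.8 CPM at most, with Cd3e and Cd4 at 0, and those of 5 stromal markers reached 0.524 CPM. Myeloid markers summed to at most 57.8 CPM, nearly all from Itgam and Cd68, with Adgre1 at 0. Abcb1b, the drug efflux pump, ran from 16.05 to 70.3 CPM in DMSO control lines and from 26.3 to 258 CPM in paclitaxel resistant lines. The highest DMSO control line, DMSO 12, and the lowest paclitaxel resistant line, Pac H9, each had a library of the opposite treatment as nearest neighbour over all tested genes, so results are also given without both. The names of lines from DMSO 12 on, which include every paclitaxel resistant line, could also be shifted against the libraries. Leaving out these 2 libraries does not settle that, so a value given for a named line belongs to the library labelled with that name. Pac A6, Pac C1 and Pac D7 were also nearest to a DMSO control library. Their Abcb1b was 42.2, 50.2 and 61.7 CPM, where DMSO control lines other than DMSO 12 reached 45.8 CPM, so that Pac A6 lay within their range. Cdkn2a, the gene of p19ARF, had 0 counts in every library, from which a deletion and low expression cannot be told apart.

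To determine whether the network differed between treatments, the counts of all genes were fitted with edgeR. Of 9445 genes, 208 (2.2%) passed an adjusted p of 0.01 in either direction, with 94 (0.995%) higher and 114 (1.21%) lower in paclitaxel resistant lines. None of the 9 tested members did so. At an unadjusted p under 0.05, 3 members were higher and 0 were lower, where 14.9% of all tested genes were higher and 10.2% lower. edgeR's likelihood ratio test and DESeq2 also called 0 members and gave the same 3 and 0 at an unadjusted p under 0.05. Without DMSO 12 and Pac H9, 321 of 9567 genes (3.36%) and 0 members were called, and 2 members were higher at an unadjusted p under 0.05. Without Pac C3 and DMSO 11 there were 4 higher, with Mnt added (log2 fold change 0.70, adjusted p of 0.141 in edgeR's test). With depth as covariate 3 were higher and 1, Mlx, was lower (log2 fold change -0.38, adjusted p of 0.153 in edgeR's test). The shares of 14.9% and 10.2% belong to the main edgeR fit. They were not computed for the other settings, so the counts of members there have no background.

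The endogenous Myc gene lies at chr15:61985391-61990374 (GRCm38, plus strand). Its tags cannot be told apart at the 3′ end from those of the transgene, the driver of the tumour. Myc ran from 669 CPM through a median of 836 to 1119 CPM in DMSO control lines, and from 786 through 1036 to 3028 CPM in paclitaxel resistant lines. The parental line had 946 CPM. In 16 of the 17 paclitaxel resistant lines Myc was above the DMSO median, and in 5 it was above every DMSO control line, but the groups overlapped. The means were 846 ± 127 (SD, n = 12) and 1172 ± 508 CPM (SD, n = 17). The log2 fold change was 0.47 ± 0.15 (SE), with an adjusted p of 0.0517 in edgeR's quasi-likelihood test, which is above the threshold. Over the alternatives the log2 fold change was between 0.35 and 0.53 and the adjusted p between 0.0239 and 0.0919. A rank-sum permutation test of Myc alone gave p = 0.00082 (two-sided, unadjusted, 1 of 9 members tested), and p = 0.00219 without DMSO 12 and Pac H9. In bulk RNA, a larger share of cells with high Myc and more Myc RNA in each cell cannot be told apart.

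A single line, Pac C3, carried the widest departure of Myc. It had 3028 CPM, where the next line, Pac D4, had 1451 CPM. Without Pac C3 and DMSO 11, the highest DMSO control line, the log2 fold change was 0.35 with an adjusted p of 0.0239. Its library was among the smaller ones, with 1222823 counts. In Pac C3, Myc lay 1.85 log2 units above the DMSO mean, where the median of the 363 other tested genes of chromosome 15 was -0.07 and that of all tested genes -0.03. In Pac D4, Myc lay 0.79 log2 units above the DMSO mean, and the chromosome 15 median was 0.34 beside 0.09 over all tested genes. Of the tested genes within 2 Mb of Myc none was called in edgeR's test. Pvt1, a noncoding RNA 47612 bases downstream, had 23.98 CPM in Pac C3 and up to 55.2 CPM in the other lines, with means of 22.3 ± 6.9 (SD, n = 12) and 22.1 ± 11.4 CPM (SD, n = 17). Fam84b, the nearest tested gene upstream (position -1131613 bases from Myc), had 4.28 CPM in Pac C3 and up to 10.7 CPM elsewhere. In Pac C3 both neighbours lay within the range of the other lines. These neighbours and the values of chromosome 15 belong to the endogenous gene only. The position of the transgene is not given in the sources used here.

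**Figure D1:**
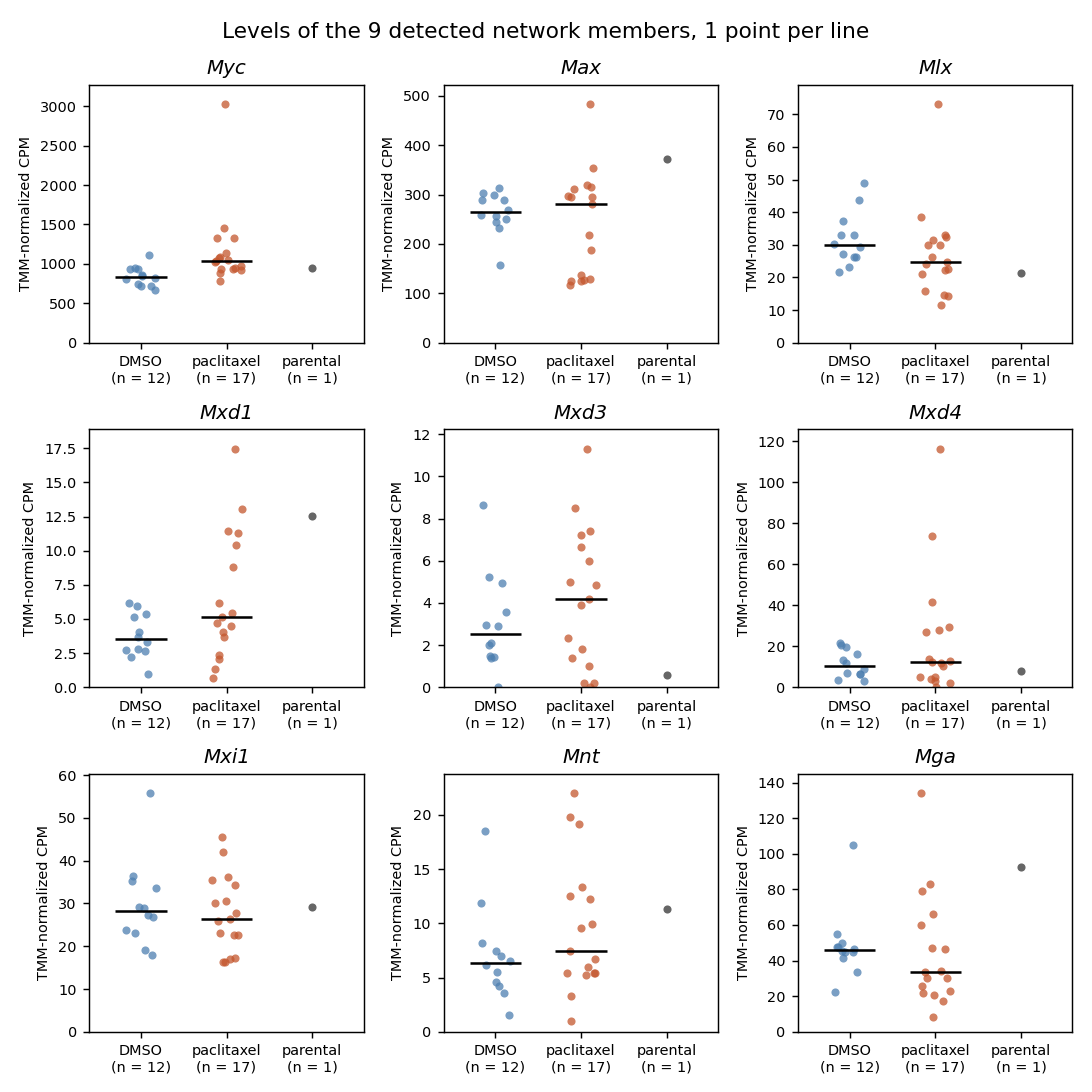
Levels of the 9 detected members in TMM-normalized CPM (linear axes from 0), with 1 point per line and a bar at the median of each treatment. The point of Myc at 3028 CPM is Pac C3, and Max shows 6 paclitaxel resistant lines between 117 and 138 CPM, below every DMSO control line.

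Mycn, which can replace Myc in other tissues, had 0 counts in all 30 libraries. A floor of 3 counts corresponds to 0.437 CPM in the deepest library and 6.27 CPM in the smallest, for counting error only.

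Max, the shared partner, lies at chr12:76937269-76962201 (minus strand) and was not called. Its log2 fold change was -0.12 ± 0.19 (SE), with an adjusted p of 0.721 in edgeR's test. It ran from 157 through 264 to 314 CPM in DMSO control lines and from 117 through 281 to 483 CPM in paclitaxel resistant lines, and the parental line had 371 CPM. Its lines lay farther apart among paclitaxel resistant lines, with 6 of them below and 4 above every DMSO control line. In DMSO control lines, 11 of 12 lay between 231 and 314 CPM, and DMSO 11 stood lower at 157 CPM. In paclitaxel resistant lines, Pac D7 (117 CPM), Pac F10 (125 CPM), Pac C3 (126 CPM), Pac A6 (126 CPM), Pac G9 (130 CPM) and Pac C11 (138 CPM) lay below every DMSO control line. Pac C1 had 188 CPM and Pac D4 219 CPM, and the remaining 9 lines ran from 281 to 483 CPM.

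The spread of Max between lines was tested as the log2 ratio of the mean absolute deviation from the group median. It was 1.69 log2 units wider in paclitaxel resistant lines (two-sided permutation test, unadjusted p = 0.00674), and the SD of its log2 level was 0.27 (n = 12) and 0.66 (n = 17). A wider spread was common, since the median ratio over all tested genes was 0.62 and 19% of them were wider at an unadjusted p under 0.05. Adjusted over all tested genes, Max had p = 0.182, where 0.0424% of tested genes passed 0.05. Without DMSO 12 and Pac H9 the ratio was 1.67 and the adjusted p 0.0791, with 0.582% of genes past 0.05 and 21.9% wider at an unadjusted p under 0.05. Of the other members only Mga was wider at an unadjusted p under 0.05 (ratio 1.39, permutation p = 0.0177, adjusted p 0.209), which makes 2 of 9 members beside 19% of all tested genes. Without DMSO 12 and Pac H9 there were 3, since Mxd4 was wider too (ratio 1.18, permutation p = 0.023). Myc had a ratio of 0.62 (permutation p = 0.528), close to the median of all tested genes.

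The 6 lines with the lowest Max had a higher median scaling factor and a higher median number of detected genes, but Pac C3 did not share either. Their TMM factors had a median of 1.15 (0.962 in Pac C3 to 1.26 in Pac F10), where the other 11 paclitaxel resistant lines had a median of 0.978 and DMSO control lines one of 0.964. They held a median of 16618 genes with a count (12434 in Pac C3 to 17333 in Pac F10), beside 13441 in the other 11 lines and 15452 in DMSO control lines. Scaled by library totals alone, without TMM factors, the same number of lines, 6, lay below every DMSO control line and the ratio of spread was 1.402 (permutation p = 0.0157). The part of these library properties in the spread of Max was not tested.

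The MXD genes encode the repressors that displace MYC from MAX as cells leave the cycle. Mxd1, at chr6:86647042-86669161, ran from 0.999 through 3.50 to 6.17 CPM in DMSO control lines and from 0.689 through 5.14 to 17.5 CPM in paclitaxel resistant lines. The highest were Pac G9 (17.5 CPM), Pac D7 (13.02 CPM), Pac C11 (11.4 CPM), Pac A6 (11.3 CPM), Pac C1 (10.4 CPM) and Pac H1 (8.82 CPM), all above every DMSO control line. The parental line had 12.5 CPM. Counts of Mxd1 ran from 2 to 109 over the libraries, so that some lay near the floor of 3 counts. The log2 fold change was 0.83 ± 0.36 (SE), with an adjusted p of 0.148 in edgeR's test.

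Mxd4, at chr5:34173883-34187720, varied more between lines than Mxd1. It ran from 3.03 through 10.3 to 21.5 CPM in DMSO control lines and from 0 through 12.2 to 117 CPM in paclitaxel resistant lines. The 6 lines above every DMSO control line were Pac F10 (117 CPM), Pac C11 (73.9 CPM), Pac G9 (41.8 CPM), Pac D4 (29.5 CPM), Pac A6 (27.7 CPM) and Pac D7 (26.9 CPM). At the other end, Pac C1 had 0 counts, below its floor of 6.27 CPM, and Pac D10 had 2.07 CPM. The log2 fold change was 1.07 ± 0.50 (SE), with an adjusted p of 0.173 in edgeR's test. The rank-sum permutation test gave p = 0.616. Of the tested genes with a mean log2 level within 0.5 of that of Mxd4, 1.48% had a larger SD between paclitaxel resistant lines and 8.70% a larger SD between DMSO control lines.

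Mxd3, which is linked to S phase, was near the floor in many libraries. It ran from 0 through 2.504 to 8.64 CPM in DMSO control lines and from 0 through 4.19 to 11.3 CPM in paclitaxel resistant lines, with DMSO 12 and Pac C1 at 0 counts. Its log2 fold change was 0.44 ± 0.46 (SE), with an adjusted p of 0.579 in edgeR's test. Mxd3 overlaps Prelid1 on the opposite strand, so its few counts may be shared if strand was not used.

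Mxi1, the remaining repressor of this type, had close medians in both groups. It ran from 17.9 through 28.1 to 55.8 CPM in DMSO control lines, with DMSO 11 highest, and from 16.3 through 26.3 to 45.5 CPM in paclitaxel resistant lines. The log2 fold change was -0.12 ± 0.18 (SE), with an adjusted p of 0.712 in edgeR's test.

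**Figure D2:**
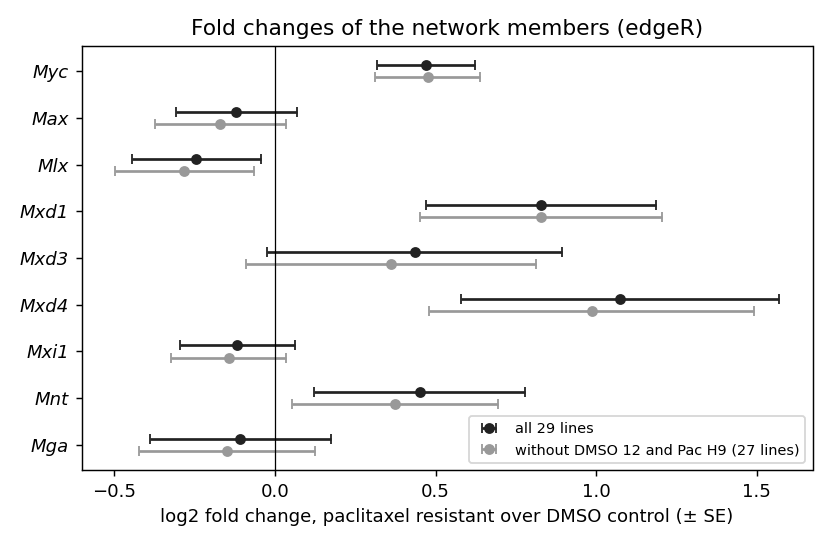
Log2 fold changes of the 9 tested members, paclitaxel resistant over DMSO control, with bars of 1 SE, over all 29 lines (black) and over the 27 lines without DMSO 12 and Pac H9 (grey). Myc, at 0.47 ± 0.15, has the shortest bar, and Mxd4, at 1.07 ± 0.50, has the widest.

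Mnt and Mga, the large MAX partners, varied between lines in the same direction. MNT is a repressor found in cycling and resting cells, and MGA is a subunit of a polycomb complex that also holds MAX. Mnt ran from 1.52 through 6.36 to 18.5 CPM in DMSO control lines and from 1.03 through 7.42 to 22.02 CPM in paclitaxel resistant lines. Mga ran from 22.2 through 45.8 to 105 CPM in DMSO control lines and from 8.26 through 33.4 to 134 CPM in paclitaxel resistant lines, and the parental line had 92.4 CPM. Neither was called, with log2 fold changes of 0.45 ± 0.33 (SE, adjusted p of 0.403) for Mnt and -0.11 ± 0.28 (SE, adjusted p of 0.841) for Mga in edgeR's test. Pac C11, Pac D4 and Pac F10 were the 3 highest paclitaxel resistant lines for both genes. DMSO 11 was the highest DMSO control line and DMSO 12 the lowest for both, and Pac D10 the lowest paclitaxel resistant line. The mitochondrial share of counts was 12.42% in DMSO 11, 11.86% in Pac D4 and 10.1% in Pac C11, the highest of all libraries, but 2.295% in Pac F10. At the low end, the counts of Mnt were 3 in DMSO 12 and 1 in Pac D10, whose libraries held 2077965 and 989719 counts. The part of both in the relation of Mnt and Mga was not tested.

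Over the 29 lines, deviations from the treatment means of Mga and Mnt had a Pearson r of 0.73 and a Spearman rho of 0.50 (permutation p = 3e-05, adjusted p = 0.000698 over the correlations of Mga with all tested genes, and 0.0059 over those of Mnt). This pair was examined after the values had been seen. Mga correlated at an adjusted p under 0.01 with 2014 of 9444 genes (21.3%), so such a relation was common for Mga. For Mnt the number was 115 of 9444 genes, and 0 without DMSO 12 and Pac H9. Without Pac D10 and Pac C11, the lines farthest from the median of Mga, r was 0.58. Without DMSO 12 and Pac H9, r was 0.71 and rho 0.39, with an adjusted p of 0.0028 over the correlations of Mga and 0.0292 over those of Mnt, the latter above 0.01. Within paclitaxel resistant lines r was 0.75 and rho 0.68 (n = 17, permutation p = 0.0007, adjusted p = 0.0103 for Mga and 0.141 for Mnt), falling to r = 0.49 without the same 2 lines. Within DMSO control lines r was 0.76 and rho 0.36 (n = 12, permutation p = 0.0116, adjusted p = 0.0922 for Mga and 0.116 for Mnt), but r was -0.19 without DMSO 11 and DMSO 12, so that relation rests on these 2 lines. Neither treatment alone passed an adjusted p of 0.01. Mga and Mxd4 had r = 0.66 and rho = 0.66 over the 29 lines (permutation p = 0.00097, adjusted p = 0.00582), and r = 0.56 without the 2 farthest lines. Mxd4 correlated with 2025 of 9444 genes at an adjusted p under 0.01. Within paclitaxel resistant lines Mga and Mxd4 had r = 0.69 (adjusted permutation p = 0.0185 for Mga and 0.0142 for Mxd4). Within DMSO control lines they had r = 0.48 (permutation p = 0.113), and r = -0.28 without DMSO 11 and DMSO 12.

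Max ran against Mxd1 and Mga from line to line. Over the 29 lines, deviations of Max and Mxd1 from the treatment means had r = -0.70 and rho = -0.66 (permutation p = 0.00024), and r = -0.59 without Pac E2 and Pac D7, the lines farthest from the median of Max. The adjusted p was 0.00317 over the correlations of Max with all tested genes but 0.0795 over those of Mxd1. In Pac E2, the line highest for Max, Mxd1 had 3 counts. The correlation of this pair was not run after thinning to equal depth. Max correlated at an adjusted p under 0.01 with 14.4% of all tested genes, and this relation too was examined after the values had been seen. Max and Mga had r = -0.64 and rho = -0.65 (permutation p = 0.00093, adjusted p = 0.00753 for Max and 0.00587 for Mga), and r = -0.75 without the same 2 lines. Max and Mxd4 had r = -0.54 and rho = -0.60, with adjusted permutation p-values of 0.0351 for Max and 0.0301 for Mxd4, above 0.01.

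Without DMSO 12 and Pac H9, r was -0.73 for Max and Mxd1 (adjusted p = 0.00292 for Max and 0.0604 for Mxd1, by permutation) and -0.65 for Max and Mga (adjusted p = 0.0128 for Max and 0.0103 for Mga, by permutation). Within paclitaxel resistant lines Max and Mxd1 had r = -0.77 and rho = -0.74 (n = 17, permutation p = 0.00026, adjusted p = 0.00963 for Max and 0.143 for Mxd1), and r = -0.77 without the 2 farthest lines. Within DMSO control lines the same pair had r = -0.29 and rho = -0.17 (n = 12, permutation p = 0.339), and whether the treatments differ in this was not tested. Max and Mga had r = -0.64 (adjusted p = 0.0376 for Max, by permutation) within paclitaxel resistant lines. Within DMSO control lines it was -0.65 (permutation p = 0.0627), and -0.08 without DMSO 11 and DMSO 5. As a description of levels, Mxd4 had a median of 34.8 CPM (13.7 to 117 CPM) in the 6 lines with the lowest Max and 5.24 CPM (0 to 29.5 CPM) in the other 11, of which Pac C1 and Pac D4 lie between. Mxd1 had medians of 11.3 CPM (5.14 to 17.5 CPM) and 4.02 CPM (0.689 to 10.4 CPM) in the same sets. These lines were singled out by a measured value, and so no test was made between them.

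**Figure D3:**
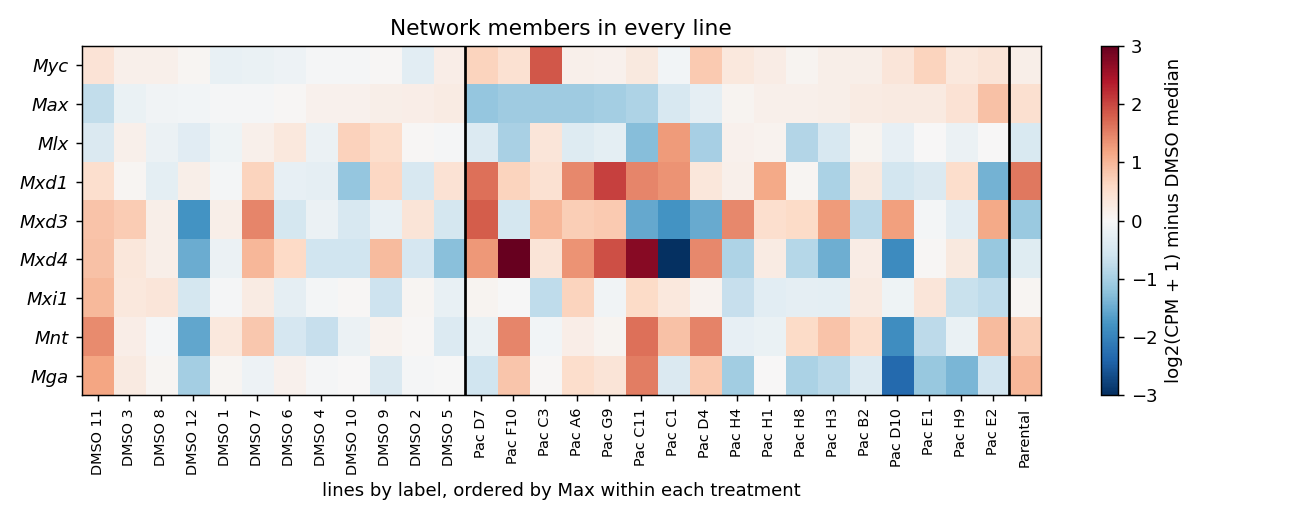
Each member in every line, as log2(CPM + 1) minus the median of DMSO control lines (red higher, blue lower, colours capped at 3 log2 units), with lines ordered by Max within each treatment and the parental line at the right. The 6 paclitaxel resistant lines with the lowest Max are at the left of their block, where Mxd1 lies above the DMSO median, and Pac C3 stands out for Myc.

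Mlx, the partner that links the network to MondoA and ChREBP, lies at chr11:101087277-101092207. It ran from 21.7 through 29.8 to 48.9 CPM in DMSO control lines and from 11.6 through 24.8 to 73.1 CPM in paclitaxel resistant lines. Pac C1, the smallest library, was the highest, and 5 paclitaxel resistant lines lay below every DMSO control line. The log2 fold change was -0.24 ± 0.20 (SE), with an adjusted p of 0.461 in edgeR's test. Mlx overlaps Psmc3ip on the opposite strand, and the counts of the pair may not be fully separate if strand was not used.

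**Figure D4:**
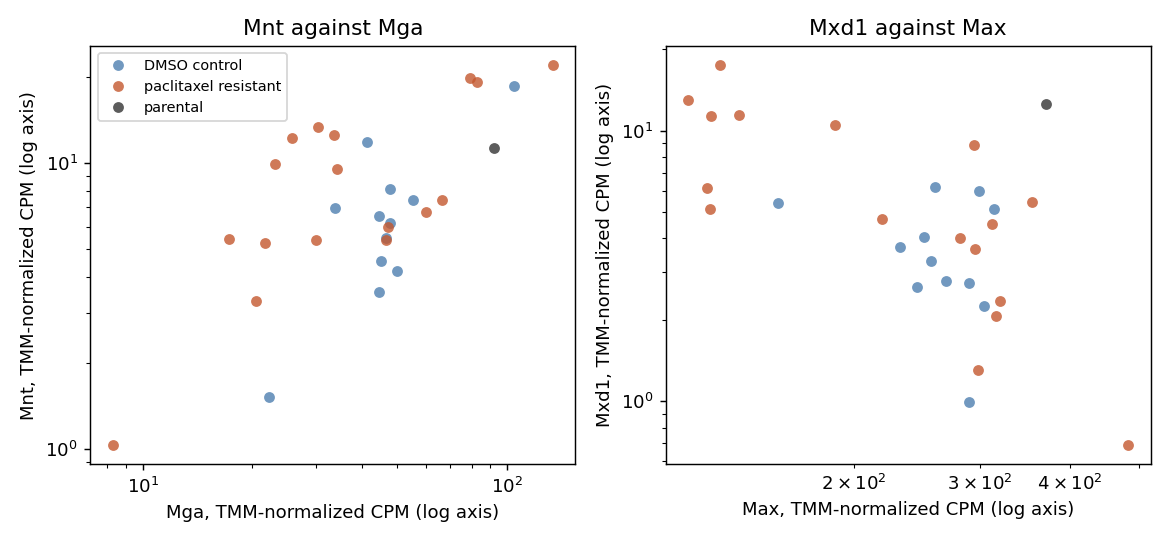
Mnt against Mga (left) and Mxd1 against Max (right) in TMM-normalized CPM on log axes, with 1 point per line and colours for treatment. At the left the lines run from Pac D10, lowest for both genes, to Pac C11, highest for both. At the right the 6 paclitaxel resistant lines with Max between 117 and 138 CPM have Mxd1 between 5.14 and 17.5 CPM.

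Genes that varied together with Myc were sought over the 29 lines within treatments. Of 9444 genes, 0 (0.0%) passed an adjusted p of 0.01 in the permutation test, and 1053 had an unadjusted p under 0.05. Over these lines no other member did so at an unadjusted p under 0.05, with r between -0.31 for Max and 0.22 for Mxd4. Max did after thinning (r = -0.41, permutation p = 0.0423) and within DMSO control lines (r = -0.61, permutation p = 0.0349). Without DMSO 11 and DMSO 2 the latter r was 0.01. In the other settings run Max did not pass 0.05. The 5 genes with the highest r were Stambpl1, a deubiquitinase (r = 0.73, rho = 0.67), Hnrnph1, a splicing factor (r = 0.70, rho = 0.68), Mbd1, a methyl-CpG binding protein (r = 0.69, rho = 0.40), Nicn1 (r = 0.68, rho = 0.57) and Cdc25b, a phosphatase that drives entry into mitosis (r = 0.68, rho = 0.49). The permutation p-values were 0.00012, 0.00013, 0.00358, 6e-05 and 0.00054, and the adjusted p-values 0.0423, 0.0423, 0.176, 0.0348 and 0.0662 in the same order. The lowest were Rtf2 (r = -0.87, rho = -0.72, permutation p = 1e-05, the smallest that 100000 resamples can give, adjusted p = 0.027), Ftx (r = -0.79, rho = -0.55, p = 6e-05, adjusted p = 0.0348 by permutation) and Irf3, an interferon regulator (r = -0.78, rho = -0.51, p = 0.00035, adjusted p = 0.0612 by permutation). Without Pac C3 and DMSO 11, the lines farthest from the median of Myc, r was 0.63 for Stambpl1, 0.72 for Hnrnph1, 0.51 for Mbd1, 0.60 for Nicn1, 0.56 for Cdc25b, -0.70 for Rtf2, -0.56 for Ftx and -0.54 for Irf3. Within DMSO control lines r was -0.53 for Mbd1, 0.12 for Cdc25b and -0.29 for Irf3, where it was 0.87, 0.77 and -0.85 within paclitaxel resistant lines. After thinning to equal depth r was 0.41 for Nicn1. Rtf2, a replication fork protein, had 50.5 CPM in Pac C3 and from 74.2 to 188 CPM in the other 28 lines.

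The wider pathway was followed through 5 lists of genes, of which Klf2 alone passed the threshold. Over all tested genes 2.2% were called, and 14.9% were higher and 10.2% lower at an unadjusted p under 0.05. Among 23 MYC cofactors and corepressors 0 were called, with 5 higher and 2 lower at an unadjusted p under 0.05. Their median log2 fold change was 0.17, beside 0.07 over all tested genes. Of 14 tested regulators of MYC protein 0 were called, with 6 higher and 2 lower at an unadjusted p under 0.05 and a median of 0.55. Of 8 tested partners of the extended E-box network 0 were called, with 1 higher and a median of 0.54. DESeq2 and edgeR's likelihood ratio test called 0 genes in these 3 lists too.

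Of 48 tested MYC-activated targets 0 were called in the quasi-likelihood test, with 5 higher and 3 lower at an unadjusted p under 0.05 and a median log2 fold change of -0.05. Over all tested genes 14.9% were higher and 10.2% lower in that fit, and no test compared the list with them. Without Pac C3 and DMSO 11 the counts were 9 higher and 4 lower, and with depth as covariate 8 and 4. The shares of all tested genes were not computed in these settings. The other tools and selections called at most 1 of the MYC-activated targets, Cad or Ccnd2, which were named after their values were seen. Cad, an enzyme of pyrimidine synthesis, ran from 30.4 through 43.6 to 90.7 CPM in DMSO control lines and from 24.3 through 80.1 to 199 CPM in paclitaxel resistant lines. Its log2 fold change was 1.00 with an adjusted p of 0.0216 in edgeR's test. DESeq2, edgeR's likelihood ratio test, the fit with depth as covariate and the fit without Pac C3 and DMSO 11 called it. Ccnd2, the cell cycle gene of cyclin D2, had a median of 0 CPM in DMSO control lines, and its highest value there, 37.4 CPM, was in DMSO 12. In paclitaxel resistant lines it ran from 0 through 12.7 to 52.3 CPM. Its log2 fold change was 2.27 with an adjusted p of 0.12 in edgeR's test, and without DMSO 12 and Pac H9 they were 3.90 and 0.007.

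Of 16 tested MYC-repressed targets 1 was called, and it was lower, beside 1.21% of all tested genes called lower. Klf2, a quiescence factor of lymphocytes, fell by 1.31 on the log2 scale with an adjusted p of 0.00283 in edgeR's test, and the adjusted p was 0.00498 without DMSO 12 and Pac H9. It ran from 23.9 through 64.8 to 104 CPM in DMSO control lines and from 7.96 through 17.2 to 70.2 CPM in paclitaxel resistant lines, where 16 of 17 lay below the DMSO median and 11 below every DMSO control line. The list had 10 genes with a positive log2 fold change and a median of 0.16. Zfp36l1, an RNA binding protein named after its values were seen, had a log2 fold change of 1.47 with an adjusted p of 0.026 in edgeR's test, and was called by DESeq2, the likelihood ratio test and the fit with depth as covariate. No list gene passed an adjusted p of 0.01 in its correlation with Myc, and the median r with Myc was between -0.15 for MYC-activated targets and 0.14 for regulators of MYC protein, beside 0.03 over all tested genes.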

How the data were processed

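RNA was measured in 30 mouse lymphoma lines as 3′-end digital gene expression libraries, prepared in 2 subpools that the labels do not assign to lines, so the subpool could not be modelled. The authors aligned reads to GRCm38 with STAR 2.5.1b and deposited whole-number counts per gene, without normalization. Whether molecular identifiers were collapsed is not given in the sources used here. If they were not, counts are not independent molecules. Symbols, found for 55141 identifiers, and positions came from gencode M21, where the study used M25. All library columns were used (0 left out).

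Counts were tested by the quasi-likelihood F test of edgeR (version 4.0.16, under R 4.3.3), after filtering low genes by treatment with filterByExpr and scaling by TMM. Its p-values were adjusted over all tested genes by Benjamini-Hochberg and read at 0.01, and the parental library stayed outside. Nothing in the labels shows more than 1 library per line, so p-values measure the spread between lines. The SE is the log2 fold change divided by the square root of F. Rank-sum, spread and correlation tests used log2 CPM with a prior count of 2, or CPM for ranks, and 100000 permutations, run with scipy 1.17.1 and numpy 2.4.6 under Python 3.11.15. Results were recomputed with DESeq2 1.42.0, with the likelihood ratio test of edgeR, with RLE factors, without the filter, after thinning to 480919 counts, with log10 total as covariate, at a threshold of 0.05, with a prior count of 0.5, within a single treatment for correlations, and with pairs of lines left out (DMSO 12 with Pac H9, Pac C3 with DMSO 11). The quasi-likelihood fit, and not its alternatives, was also run on simulated counts, and no outcome of that run is given here.

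Members and lists were chosen with earlier results of these data known. Named genes are the 10 members, list genes past the threshold in the main fit, the nearest tested genes on each side of Myc, the 5 genes with the highest and 3 with the lowest r with Myc, Abcb1b, Cdkn2a and the markers. Cad, Ccnd2 and Zfp36l1 lie outside this rule and were named after their values were seen, for calls in other settings. The adjustment of the spread over all genes, values without TMM factors and the correlations of Mga and Max were added after the values were seen.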

Additional observations from a re-analysis of the deposited data

Results flagged for a closer look

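The parental line stood outside every comparison, and 2 members lay above all DMSO control lines there. Max had 371 CPM (622 counts) in the parental line, beside 157 to 314 CPM in DMSO control lines and up to 483 CPM in paclitaxel resistant lines. Mxd1 had 12.5 CPM (21 counts) in the parental line, beside 0.999 to 6.17 CPM in DMSO control lines and up to 17.5 CPM in paclitaxel resistant lines. This is a single library of 1851837 counts with no replicate, so neither difference was tested. The treatments of 12 and 17 lines were too large for the check of single lines that stand apart.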

How the results depend on the processing

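The number of genes called between treatments was 208. It was 448 with edgeR's likelihood ratio test, 491 with DESeq2, 125 after thinning to equal depth, 321 without DMSO 12 and Pac H9, 338 without Pac C3 and DMSO 11 and 714 at a threshold of 0.05, where fewer genes are tested after thinning and the cause of the other moves was not tested. At an adjusted p of 0.01, 0 network members were called in the main test and in each of its 8 alternatives. Also at 0.01, 0 genes correlated with Myc over all lines, without DMSO 12 and Pac H9, after thinning, within each treatment and with a prior count of 0.5, and this correlation was not run in the other settings. Of 68 alternative fold changes of single members, 64 kept their sign and side of the threshold. The log2 fold change of Mxi1 was 0.0685 after thinning and 0.0235 without Pac C3 and DMSO 11, and that of Mga was 0.0545 with depth as covariate and 0.0262 without Pac C3 and DMSO 11, where both were negative over all lines. Members wider in paclitaxel resistant lines at an unadjusted p under 0.05 numbered 2, beside 19% of all tested genes. Without DMSO 12 and Pac H9 they numbered 3, beside 21.9%. They numbered 4 without Pac C3 and DMSO 11, 1 after thinning and 4 without TMM factors (Mxd1 only just, at permutation p = 0.0498). For these settings the share of all tested genes was not computed, so the counts have no background. The log2 ratio of Mxd1 was -0.26 after thinning. Genes called in the 5 lists numbered 1, and 3 with the likelihood ratio test, with DESeq2 and with depth as covariate, and 2 in each fit with 2 lines left out. The r of Mbd1 with Myc was -0.53 within DMSO control lines. Mxd1, Mxd3, Mxd4 and Mnt could not be fitted after thinning, since they fell below the filter. No paired analysis was possible because the treatments share no replicate numbers. At the smallest total, members under about 6 CPM lie at the floor of 3 counts.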
